A study of Homo sapiens with 6 samples.

Results

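The genes described here are 10 members of interleukin-6 (IL6) family signalling, taken by symbol from the 37902 genes of the deposited table. They are the ligands IL6 and LIF, the receptor subunits IL6R, IL6ST and OSMR, the kinase JAK1, the transcription factor STAT3, and the inhibitors SOCS1, SOCS2 and SOCS3. All 10 were found, and 9 of the 10 passed the filter for testing, a mean of at least 10 normalised counts over the 6 libraries. SOCS1 did not. ARPE-19 is a long-established human line whose source was the retinal pigment epithelium, or RPE. To make POLDIP2 KO, a lentivirus delivered SpCas9 with a guide that targets POLDIP2 coding sequence to ARPE-19 cells, and puromycin was used to select the cells that took it up. WT is the parental ARPE-19 line, for which no transduction or selection is described, so the loss of POLDIP2 and the handling of the line cannot be told apart. Both lines were under regular maintenance and sampled at day 3, with 3 libraries of polyadenylated RNA each, labelled as biological replicates of 1 line per genotype.

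IL6 family cytokines bind a ligand-specific receptor chain that pairs with gp130, the shared signalling subunit encoded by IL6ST. The complex activates JAK kinases, which phosphorylate STAT3, and STAT3 then enters the nucleus and switches on its targets. SOCS3 is among those targets, and its protein binds gp130 and the kinase and shuts the signal off. RPE cells are a known source of IL6 in the eye when they meet inflammatory cytokines. RNA levels do not report phosphorylation, so what follows is about transcripts of the pathway and not about its activity.

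Of the 10 genes, IL6 and SOCS3 had the highest fold changes, and for both the lowest POLDIP2 KO library lay above the highest WT library. The POLDIP2 KO mean of SOCS3 was 423 normalised counts against 194 in WT, and that of IL6 was 237 against 79.8. STAT3 was also without overlap, with a smaller difference. Of all genes tested, 10.9% were without overlap in either direction, 5.46% with POLDIP2 KO higher. No member passed the limma test across all 14684 genes tested at an adjusted p value under 0.05. DESeq2 called SOCS3, where it called 1.69% of all genes, or 2.67% with the replicate number as a block. LIF, OSMR and JAK1 were abundant, and the 95% intervals of their changes stayed inside 1.5-fold. IL6R and IL6ST varied with the replicate number in both lines. Neither passed a limma F test of that number, added once the data had been seen (adjusted p = 0.0749 and 0.11).

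The recovered reads per library were 31532797 to 45795509, and 3 reads, taken as the floor, were 2.44 to 3.69 normalised counts depending on the library. POLDIP2, the targeted gene, ran from 3919 to 4827 normalised counts in the WT libraries and from 1063 to 1248 in those of POLDIP2 KO (limma adjusted p = 0.00961), so each library followed its label. Of the 9 RPE markers looked up, 8 had a mean of at least 10, RPE65 was at 0 in every library, and the summed level of the list ran from 71743 to 82332 in WT and from 67397 to 89459 in POLDIP2 KO. KRT8 and KRT18 made up most of that sum, and the other 7 RPE markers summed to 4848 to 5260.1 in WT and 4167 to 5835 in POLDIP2 KO. OTX2 was lower in POLDIP2 KO within each replicate number, by values of -0.07, -0.37 and -0.35 on the log2 scale. The means of RLBP1, PMEL and KRT18 were lower too, at 26.5, 65.8 and 31697 normalised counts against 43.3, 84.7 and 32125 in WT. Those of BEST1, TYRP1, MITF and KRT8 were higher, at 442, 15.0, 3892 and 41129 against 333, 12.2, 3831 and 39540 in WT. The lines overlapped for all of these markers. The 7 leukocyte markers summed to 36.5 to 73.7 in WT and 23.4 to 45.7 in POLDIP2 KO, with AIF1, CD3E and MS4A1 at 0 throughout. PTPRC was higher in POLDIP2 KO without overlap, at 0 reads in each WT library and 1, 4 and 7 in POLDIP2 KO, CD14 had 0 to 3 reads in WT and 3 to 8 in POLDIP2 KO, and CSF1R was lower without overlap, at 51, 24 and 15 against 4, 18 and 12 reads. The 5 endothelial markers summed to 39.7 to 201 in WT and 46.7 to 148 in POLDIP2 KO. The part of these markers in the results was not tested.

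Of the 10 genes, 8 have a start in the RefSeq promoter table for GRCh38.p14, with 11 windows of 250 bases before a start. LIF and SOCS2 have none there. The windows were searched on both strands for the STAT element TTCNNNGAA, the AP-1 element TGANTCA and the NF-kB motif. IL6 alone held a match, 1 NF-kB motif from 73 to 64 bases before the start. Over all 34943 windows of the table, 5.20% held the NF-kB motif, 6.56% the STAT element and 6.59% the AP-1 element. The 2 SOCS3 starts used lie 410 bases after and 848 bases before the start of its MANE Select transcript. The window of the former lies inside the gene, and the windows do not cover the bases just before the MANE Select start. A match of letters is not a binding site, and a window without one says only that these letters are not in it. The IL6 window is shown because IL6 had the highest fold change of the 10 genes. It lies on the plus strand at chr7:22726950-22727199, and the capitals mark the NF-kB motif.
IL6: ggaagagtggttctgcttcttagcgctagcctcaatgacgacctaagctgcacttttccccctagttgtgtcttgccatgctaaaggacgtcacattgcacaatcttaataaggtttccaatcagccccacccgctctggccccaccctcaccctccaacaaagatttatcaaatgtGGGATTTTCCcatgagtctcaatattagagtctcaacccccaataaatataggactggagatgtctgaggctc

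Levels of different genes were compared as normalised counts per kb of the MANE Select transcript, the reference transcript of each gene. The order in WT was LIF, JAK1, OSMR, STAT3, IL6ST, SOCS3, IL6, SOCS2, IL6R and SOCS1. LIF stood at 1494 ± 125 per kb in WT (mean ± SD, n = 3 libraries), JAK1 at 1197 ± 245 and OSMR at 1061 ± 119. Over the 6 libraries LIF ran from 1401 to 1636, JAK1 from 973 to 1459 and OSMR from 966 to 1386, so the 3 most abundant genes were not separated from each other beyond their spread. STAT3 came next, at 433 ± 54.2, and its range of 371 to 606 lay below all 3.

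The shared receptor subunit gp130 was the fifth, at 252 ± 85.8 per kb in WT. The IL6-specific chain IL6R stood at 44.9 ± 23.0, below IL6ST in every library, with a highest value of 61.0 per kb against a lowest of 198 for IL6ST. SOCS3, IL6, SOCS2 and IL6R overlapped in WT, at means of 71.0, 70.8, 56.7 and 44.9 per kb. In POLDIP2 KO the means of SOCS3 and IL6 were 155 and 210.0 per kb, above the 48.5 of SOCS2 and the 42.8 of IL6R. SOCS1 was far below the others, at 3.75 per kb in WT and 4.29 in POLDIP2 KO.

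**Figure D1:**
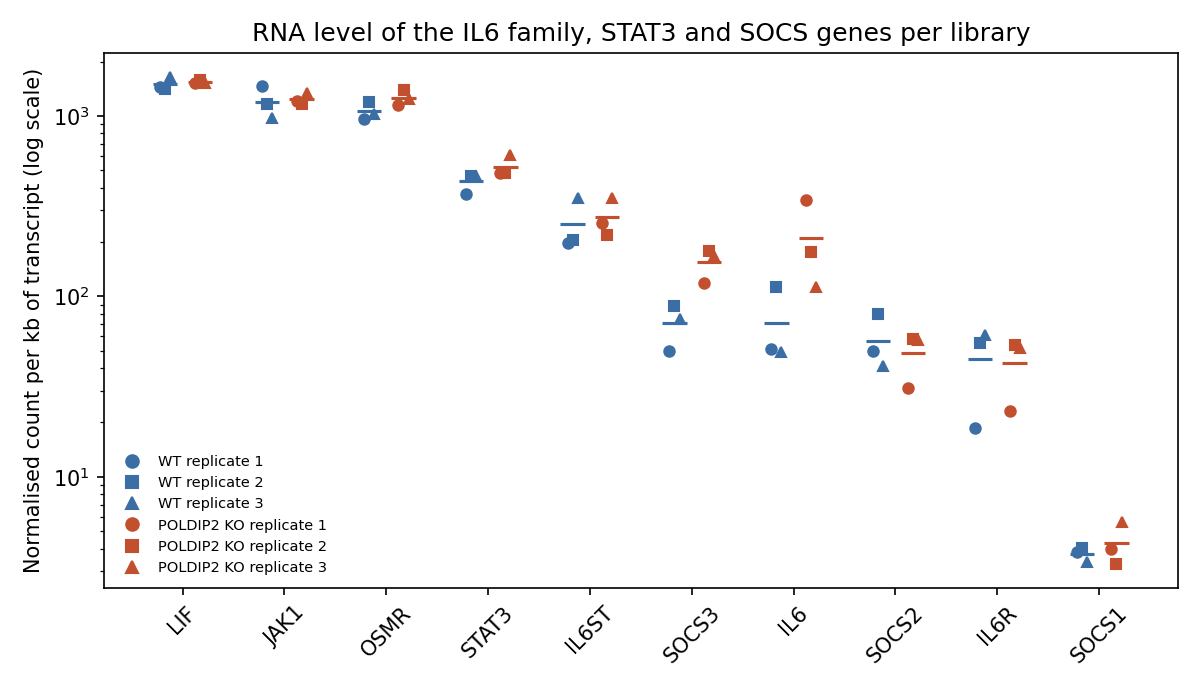
Normalised count per kb of MANE Select transcript (log axis) for the 10 genes in order of their WT mean; blue symbols are WT and orange symbols POLDIP2 KO libraries, with the shape giving the replicate number and the line the mean of 3 libraries. LIF, JAK1 and OSMR lie together near the top, SOCS1 lies near 4 per kb in both lines, and STAT3, SOCS3 and IL6 are the genes with every orange symbol above every blue one.

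Between the ligands, IL6, the cytokine that names the family, lies on the plus strand of chromosome 7 of GRCh38 from 22725884 to 22732002 (ENSG00000136244). In WT its normalised counts were 57.6, 126 and 55.3 for replicates 1 to 3, and in POLDIP2 KO they were 385, 198 and 127. The lines did not overlap, but WT replicate 2 and POLDIP2 KO replicate 3 were almost level. The mean was 79.8 ± 40.4 in WT and 237 ± 133 in POLDIP2 KO (± SD, n = 3 libraries each). The limma log2 fold change, taken between means of log2(normalised count + 1), was 1.52 (standard error 0.49). That is 2.86-fold with a 95% confidence interval from 1.28-fold to 6.38-fold. The limma adjusted p value was 0.542. Without POLDIP2 KO replicate 1, the library with the highest IL6, the log2 fold change was 1.09 (limma adjusted p = 0.689). In bulk RNA, more cells with IL6 and more IL6 per cell cannot be told apart. Exons of IL6 overlap those of STEAP1B on the opposite strand, which had 26.5 to 119 normalised counts. OSMR overlaps RICTOR in the same way, at 2302 to 2648. JAK1 overlaps RAVER2, at 787 to 896 in WT and 1039 to 1220 in POLDIP2 KO. The study names a stranded library kit, but whether the quantification used strand is not given in the sources used here.

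LIF, leukaemia inhibitory factor, which signals through LIFR and gp130 (chromosome 22, 30240453 to 30246759), was far more abundant and did not follow IL6. LIF had normalised counts of 5595, 5424 and 6335 in WT and 5927, 6110.3 and 5901 in POLDIP2 KO, each in the order of replicates 1 to 3. All 3 POLDIP2 KO values fell inside the WT range. Its log2 fold change was 0.05 (standard error 0.10), and its interval on that scale ran from -0.18 to 0.28 (limma adjusted p = 0.9998), the narrowest of the 9 genes tested. IL6 and LIF were not tested against each other.

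Among the receptors, OSMR, the oncostatin M receptor chain (chromosome 5, 38845858 to 38945596), had normalised counts of 5338, 6602 and 5645 in WT and 6355, 7658 and 6863 in POLDIP2 KO. The lines overlapped, because WT replicate 2 lay above POLDIP2 KO replicate 1, yet within each replicate number POLDIP2 KO was higher, by 0.25, 0.21 and 0.28 on the log2 scale. The log2 fold change was 0.25 (standard error 0.12), from 0.97-fold to 1.46-fold (limma adjusted p = 0.881). The interval did not reach 1.5-fold.

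IL6R, the chain that gives a cell its own IL6 binding (chromosome 1, 154405193 to 154469450), had normalised counts of 107, 318 and 352 in WT and 134, 309 and 297 in POLDIP2 KO. Replicate 1 was low in both lines, and the other replicates were close to each other. Between the lines the log2 fold change was 0.01 (standard error 0.53), with an interval from 0.42-fold to 2.40-fold, the widest of the 9 genes tested. With the replicate number in the limma model the standard error of IL6R fell to 0.18, and the interval on the log2 scale to -0.44 to 0.46.

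IL6ST (chromosome 5, 55935095 to 55995022) had normalised counts of 1786, 1861 and 3164 in WT and 2308, 1965 and 3159.6 in POLDIP2 KO. Here replicate 3 was the high one in both lines. The log2 fold change was 0.15 (standard error 0.27), from 0.72-fold to 1.71-fold (limma adjusted p = 0.9998). An F test of the replicate number in the limma model, added once the data had been seen, gave IL6R an adjusted p value of 0.0749 and IL6ST one of 0.11. By that F test 0 of the 9 genes passed adjusted, where 0.913% of all genes did, and 3 of the 9 had an unadjusted p value under 0.05, namely IL6R, IL6ST and SOCS3, where 18.9% of all genes did. The labels do not say what the replicate numbers stand for.

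**Figure D2:**
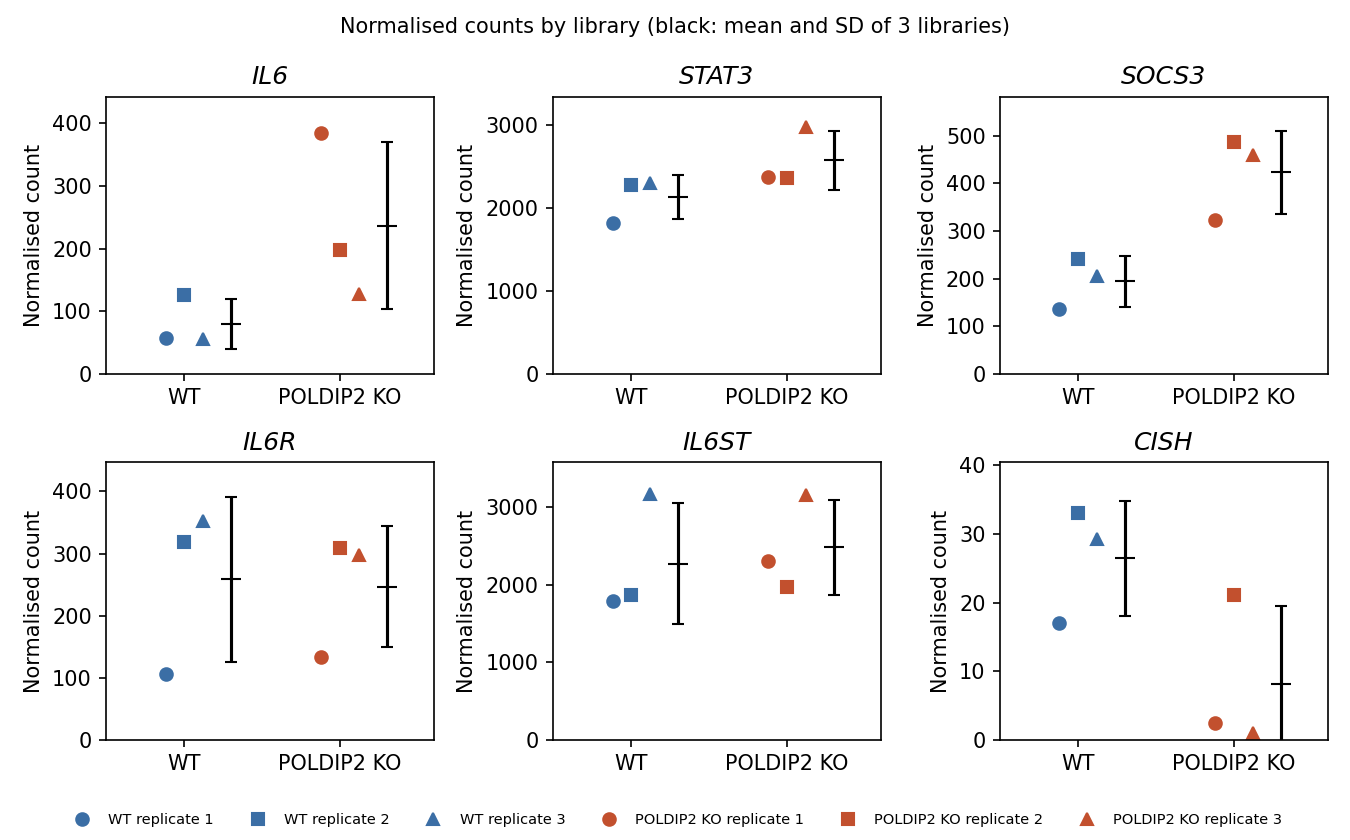
Normalised counts of 6 genes in each library (linear axes from 0), WT in blue and POLDIP2 KO in orange, with the shape giving the replicate number and black bars the mean and SD of 3 libraries; the lower bar of CISH in POLDIP2 KO ends at the axis. IL6, STAT3 and SOCS3 do not overlap between the lines, IL6R is low in replicate 1 of both lines, and IL6ST is high in replicate 3 of both lines.

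For the signal relay, JAK1, the tyrosine kinase bound to gp130 (chromosome 1, 64833223 to 65067754), had normalised counts of 7427, 5906 and 4956 in WT and 6168, 5924 and 6841 in POLDIP2 KO. The POLDIP2 KO values lay inside the WT range, and the direction differed between replicate numbers. The log2 fold change was 0.07 (standard error 0.16), from 0.81-fold to 1.36-fold (limma adjusted p = 0.9998).

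STAT3, the transcription factor of the pathway (chromosome 17, 42313324 to 42388540), had normalised counts of 1824, 2275 and 2297 in WT and 2377, 2365 and 2984 in POLDIP2 KO. The lines did not overlap, though the gap between the highest WT and the lowest POLDIP2 KO library was narrow beside the spread within each line. The mean was 2132 ± 267 in WT and 2575 ± 354 in POLDIP2 KO (± SD, n = 3 libraries each). The limma log2 fold change was 0.27 (standard error 0.15), or 1.21-fold, from 0.95-fold to 1.53-fold (limma adjusted p = 0.932).

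Of the inhibitors, SOCS3 (chromosome 17, 78356778 to 78360077, ENSG00000184557) had normalised counts of 136, 242 and 205 in WT and 324, 488 and 459 in POLDIP2 KO. Replicate 1 was the lowest of both lines, and POLDIP2 KO was higher within each replicate number by 1.24, 1.01 and 1.16 on the log2 scale. The log2 fold change was 1.14 (standard error 0.27) or 2.20-fold, with a 95% confidence interval from 1.41-fold to 3.43-fold (limma adjusted p = 0.284). Blocking on the replicate number brought the standard error to 0.14 and the limma adjusted p value to 0.0713. DESeq2, run on recovered reads as a test added once the data had been seen, put SOCS3 past the threshold, with adjusted p values of 0.0159 without and 8.23e-05 with the block. SOCS3 was the 1 member it called, where it called 1.69% of all genes without and 2.67% with the block. The quasi-likelihood test of edgeR on those reads gave SOCS3 0.314 without and 0.0915 with the block. It called 0.116% and 0.0341% of all genes. For IL6, which was not called, the DESeq2 adjusted p value was 0.114 without and 0.0595 with the block. That of edgeR was 0.585 and 0.336. Across the other settings of the test the limma adjusted p value of SOCS3 was 0.0713 to 0.33 with all libraries and 0.278 to 0.796 with a library left out. The study's own test was DESeq2, at an adjusted p value under 0.05 and a change over 1.5-fold. From these same libraries it names SOCS3 among vasculature genes that were upregulated in POLDIP2 KO. The direction of SOCS3 and its DESeq2 call here are therefore not independent evidence.

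SOCS2, best known for damping growth hormone signalling (chromosome 12, 93569814 to 93583487), had normalised counts of 118, 189.6 and 98.1 in WT and 73.8, 138 and 136 in POLDIP2 KO. The lines overlapped, and the direction turned with the replicate number, at -0.67, -0.46 and 0.47 on the log2 scale. Its log2 fold change was -0.22 (standard error 0.36), from 0.48-fold to 1.55-fold (limma adjusted p = 0.9998). SOCS1, an inhibitor of JAK kinases that interferon induces (chromosome 16, 11254417 to 11256204), had 5, 5 and 4 recovered reads in WT and 4, 5 and 7 in POLDIP2 KO. These counts are just above the floor of 3 reads, and a small difference in SOCS1 could not be detected at this depth.

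IL6 and SOCS3 did not share the same order of libraries. Within POLDIP2 KO, replicate 1 had the highest IL6 and the lowest SOCS3. The difference of IL6 by replicate number was 2.72, 0.64 and 1.19 on the log2 scale, while that of SOCS3 stayed between 1.01 and 1.24. The difference between the lines thus varied more for IL6 than for SOCS3. STAT3 was higher in POLDIP2 KO within each number by 0.38, 0.06 and 0.38.

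**Figure D3:**
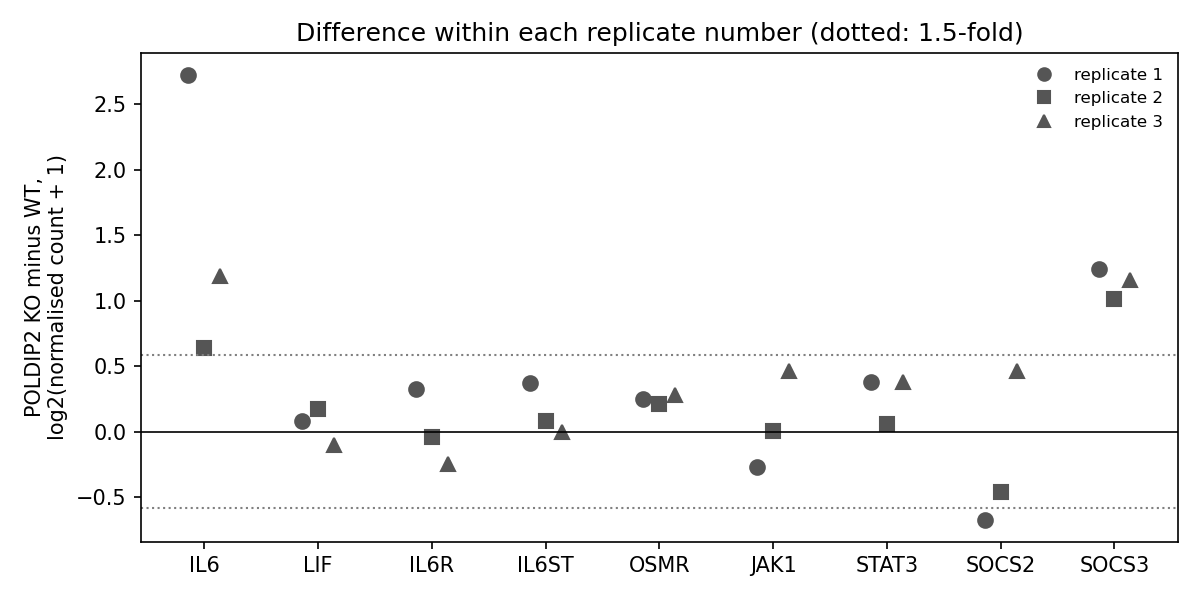
Difference of POLDIP2 KO minus WT within replicates 1, 2 and 3, on log2(normalised count + 1), for the 9 genes tested; dotted lines mark 1.5-fold. The 3 points of SOCS3 lie together between 1.01 and 1.24, those of IL6 spread from 0.64 to 2.72, and those of SOCS2, JAK1, LIF and IL6R fall on both sides of 0.

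A call needed a change over 1.5-fold and a limma adjusted p value under 0.05. By that rule 12 genes were higher (0.0817% of all genes tested) and 13 lower (0.0885%) in POLDIP2 KO, 0.170% in all, and 0 of the 9 members tested were among them. When the replicate number was added as a block, 0 of the 9 were called too, where 0.204% of all genes were. At an unadjusted p value under 0.05, 2 of the 9 passed by limma, SOCS3 and IL6, both higher, where 6.48% of all genes did, 3.00% higher and 3.47% lower. Under the block 4 of the 9 did, OSMR and STAT3 in addition, where 11.1% of all genes did. For 3 of the 9 genes the lines did not overlap, all higher in POLDIP2 KO, while 10.9% of all genes tested were without overlap in either direction, 5.46% with POLDIP2 KO higher and 5.44% with it lower. Of the 9 genes 8 had a log2 fold change above 0, where 7334 of all 14684 did, and their median was 0.15, against -0.00029 over all genes tested. The members, and the lists of other pathway genes below, were chosen with earlier results of these data known. Their shares beside those of all genes are thus a description and not independent evidence. With 3 libraries a line, the smallest p value that an exact two-sided permutation test allows is 0.1, and IL6, STAT3 and SOCS3 each reached it. Any gene without overlap reaches that value, so this test adds nothing to the overlap count.

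The other genes of the pathway were looked up from lists of ligands, receptors, kinases and STATs, inhibitors, adaptors and STAT3 targets. Of 67 listed genes 65 were found in the table and 46 were tested, and limma called 0 of them higher and 0 lower. At an unadjusted p value under 0.05, 3 were higher and 2 lower in POLDIP2 KO by limma, where 3.00% and 3.47% of all genes were. The lines did not overlap for 5 genes with POLDIP2 KO higher and 3 with POLDIP2 KO lower, a share of the 46 to be read against 10.9% of all genes. Their median log2 fold change was 0.05.

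Of the 9 other ligands 4 were tested, and 5 were below the filter, of which EBI3, a subunit of IL27, was the highest in reads, with 8, 10 and 4 in WT and 15, 13 and 5 in POLDIP2 KO. CTF1, cardiotrophin 1, was without overlap and lower in POLDIP2 KO, at 183, 248 and 199 in WT and 181, 167 and 159.9 in POLDIP2 KO. Its change was -0.30 on the log2 scale (limma adjusted p = 0.989). CLCF1, a cytokine that acts through the CNTF receptor complex, had normalised counts of 703 ± 94.1 in WT and 812 ± 131 in POLDIP2 KO. Of the receptors, LIFR was tested alone of the 4 found, and had 283 ± 61.5 in WT and 274 ± 95.6 in POLDIP2 KO (± SD, n = 3 libraries each). The IL11 receptor chain IL11RA had 3 normalised counts or fewer in every library. ADAM10, a protease known to shed the IL6 receptor, had normalised counts of 10547 in WT and 11599 in POLDIP2 KO, which is 0.15 on the log2 scale (standard error 0.21). Per kb it overlapped ADAM17, the other such protease, at 945 ± 245 against 861 ± 110.1 in WT.

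Of the 9 other kinases and STATs 8 were tested, and 7 of these had a log2 fold change above 0, as did 7334 of the 14684 genes tested. STAT6, the transducer of IL4 and IL13, had normalised counts of 5704, 5393 and 5613 in WT and 7974, 6657 and 6976 in POLDIP2 KO. All 3 POLDIP2 KO libraries lay above WT. Its log2 fold change was 0.37 (standard error 0.10), and its 95% confidence interval ran from 0.12 to 0.61. Its limma adjusted p value was 0.41. DESeq2 on recovered reads gave STAT6 an adjusted p value of 0.083, and 0.00853 with the block, at a change below 1.5-fold. The edgeR adjusted p value of STAT6 was 0.422 without and 0.196 with the block. TYK2, a kinase of the JAK family, was also without overlap, at 0.20 on the log2 scale (limma adjusted p = 0.892).

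The 5 other SOCS family genes were tested, and 0 were called. SOCS4, SOCS5 and SOCS6 had log2 fold changes of 0.13, 0.14 and 0.02, while SOCS7 (named, like SOCS6, after its values were seen) was uneven, with 23, 26 and 0 recovered reads in WT and 17, 0 and 0 in POLDIP2 KO. SOCS4 had normalised counts of 1706 ± 192 in WT and 1867 ± 242 in POLDIP2 KO (± SD, n = 3 libraries each). SOCS5 was without overlap, at a limma adjusted p value of 0.9998. CISH, a STAT5 target that dampens cytokine receptors, was picked out after its values were seen. It had 18, 33 and 28 recovered reads in WT and 2, 26 and 1 in POLDIP2 KO. POLDIP2 KO replicates 1 and 3 were at or under the floor of 3 reads, while POLDIP2 KO replicate 2 lay inside the WT range, and the limma adjusted p value was 0.746.

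Of the other inhibitors, PIAS4, a SUMO ligase that restrains STAT factors, had normalised counts of 693, 640.1 and 989.8 in WT and 544, 501 and 407 in POLDIP2 KO. The lines did not overlap, and the change was -0.66 on the log2 scale (standard error 0.21). Its limma adjusted p value was 0.514. PTPN11, the phosphatase SHP2, differed by -0.17 on the log2 scale (standard error 0.29). Its POLDIP2 KO replicate 1 had 6927 normalised counts against 13309 and 14958 in the other two. Among the gp130 adaptors SHC1 had normalised counts of 9539 in WT and 9652 in POLDIP2 KO.

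Of the 23 STAT3 targets listed, 13 were tested, and limma called 0 of them. The acute-phase genes CRP, FGA and A2M were at 0 in every library. SAA2, another acute-phase gene, and the immediate-early gene FOS had the highest and the lowest fold change of the list and were picked out for that. SAA2 had 4, 5 and 4 recovered reads in WT and 28, 5 and 15 in POLDIP2 KO, so the lines overlapped, at 1.42 on the log2 scale (standard error 0.81, limma adjusted p = 0.955). FOS had 37, 380.0 and 51 in WT and 21, 44 and 57 in POLDIP2 KO, at -1.24 on the log2 scale (standard error 0.87), and without WT replicate 2, which stood apart from the other libraries, at -0.20. CEBPD, a transcription factor of the acute-phase response, had normalised counts of 54.8, 57.2 and 56.4 in WT and 169.8, 113 and 97.3 in POLDIP2 KO. Its WT libraries were close together and all POLDIP2 KO libraries lay above them, which is 1.12 on the log2 scale (standard error 0.28), at a limma adjusted p value of 0.298. The survival factor MCL1 was without overlap and higher by 0.21 on the log2 scale (limma adjusted p = 0.802). The kinase PIM1 was without overlap in the other direction, at -0.23 (limma adjusted p = 0.9). BCL3, an NF-kB partner picked out after its values were seen, differed by 0.58 on the log2 scale (limma adjusted p = 0.765). CCND1, cyclin D1, had normalised counts of 48788 ± 10448 in WT and 51011 ± 9245 in POLDIP2 KO (± SD, n = 3 libraries each). Haptoglobin, HP, was below the filter with 4, 5 and 7 recovered reads in WT and 7, 12 and 11 in POLDIP2 KO.

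**Figure D4:**
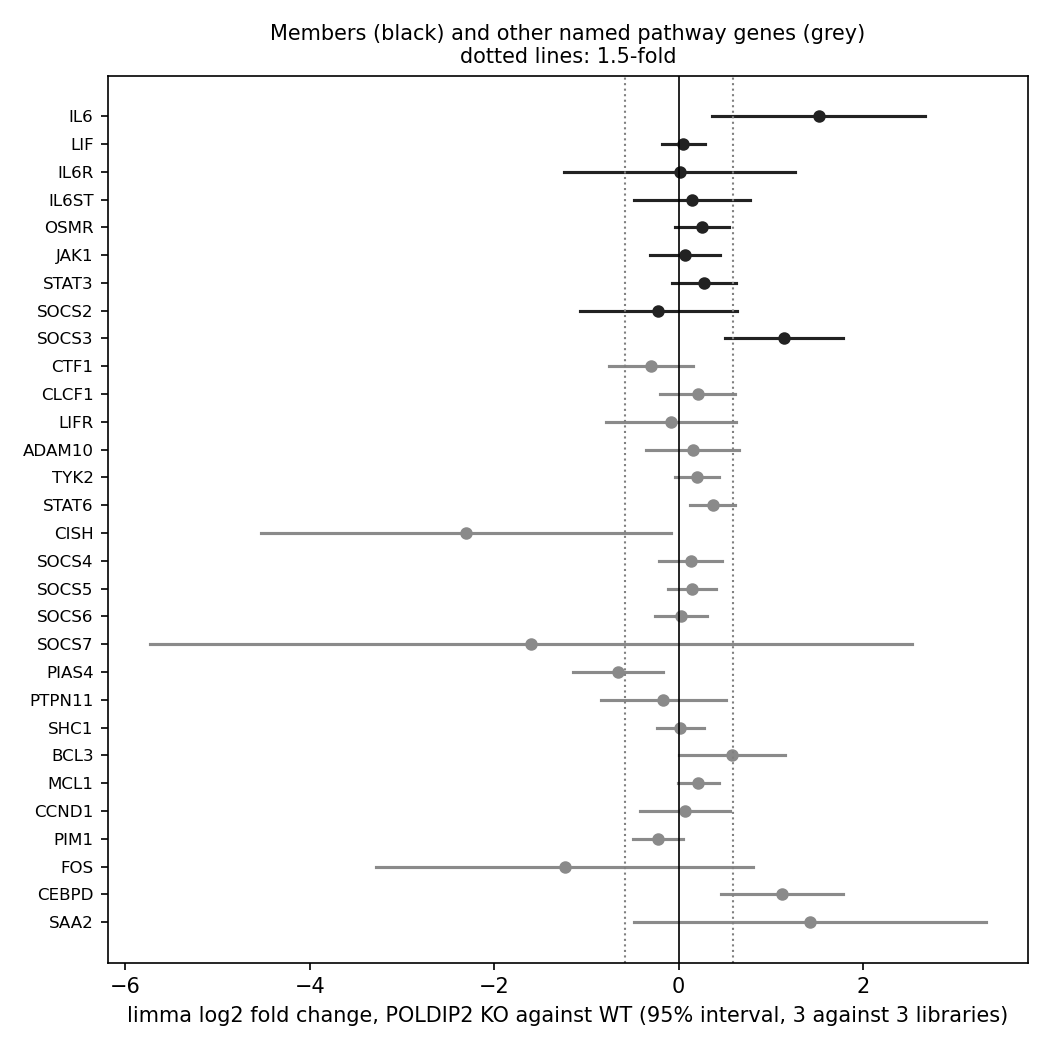
Limma log2 fold change of POLDIP2 KO against WT with its 95% confidence interval, from 3 libraries against 3, for the 9 members tested (black) and 21 other named genes of the pathway (grey); dotted lines mark 1.5-fold. IL6, SOCS3, STAT6, CEBPD and BCL3 have intervals above 0, PIAS4 and CISH below 0, and LIF, OSMR and JAK1 have intervals between the dotted lines; none of these genes passed limma adjusted over all genes.

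The pattern of IL6, LIF and SOCS3 over the 6 libraries was compared with that of the other 14683 genes tested by Pearson correlation of log2(normalised count + 1), as a description. The libraries share line, replicate number and depth, and with 6 points many genes lie close to any gene. For IL6, 99 genes had a correlation above 0.9, and the nearest were MRPS21 (0.995), CYS1 (0.995), ADAM15 (0.992), NDUFB10 (0.989) and PPAN-P2RY11 (0.984). For SOCS3, 168 genes did, and the nearest were NUDT11 (0.997), SQOR (0.994), CAMKK1 (0.989), NES (0.988) and SERPINE2 (0.986). For LIF, 85 genes did, led by CYB561A3 (0.992), CENPX (0.991), APOBEC3D (0.989), EML6 (0.983) and TTC17 (0.98). The genes nearest to IL6, LIF and SOCS3 were different for each.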

How the data were processed

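The authors quantified reads with Salmon 1.8, summed them to genes on GRCh38 with tximport, divided them by size factors from DESeq2 1.34.0, and deposited the normalised signal of 37902 genes in 6 libraries. All columns were used. Symbols came from GENCODE release 44 (34152 genes matched). Reads were recovered by dividing each column by its smallest value above 0; all values came out whole within 0.001. In WT replicate 2 and POLDIP2 KO replicate 3 that step is close to 1, at 1.003 and 0.993. The largest distance from a whole value was 8.51e-05 and 0.000221 there.

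Expression was compared with limma 3.58.1 (R 4.3.3) on log2(normalised count + 1), which understates the change of low genes, with eBayes with trend, for genes whose mean was 10 or more, and Benjamini-Hochberg adjustment over 14684 genes. Fold changes are on that scale. A call needed a change over 1.5-fold at an adjusted p value under 0.05. P values measure the spread between libraries of 1 line per genotype.

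Centred values of same-numbered libraries correlated at 0.315, 0.137 and 0.129 over 14684 genes, all above 0.1, so the replicate number was used as a block in an alternative. WT replicate 3 with POLDIP2 KO replicate 2 correlated at 0.147, above the same-numbered pairs of replicates 2 and 3. The match by number was thus clear for replicate 1 alone. The other unlike-numbered pairs were below 0. Other alternatives left out each library, changed the pseudocount to 0.5 or 5, dropped the filter or raised it to 50, quantile-normalised or recentred the libraries, and ran eBayes robustly or without its trend. The F test and the count tests of edgeR 4.0.16 and DESeq2 1.42.0 on recovered reads were added once the data had been seen. Steps were tested on simulated data. The 10 members and the gene lists were chosen with earlier results of these data known. Named genes were the members, POLDIP2, pathway genes that passed or did not overlap, the gene with the highest mean count of each list, and the 5 genes nearest to IL6, LIF and SOCS3. IL27RA and SAA1 were not analysed here. Levels per kb used MANE Select lengths. Python 3.11.15, scipy 1.17.1 and matplotlib 3.10.9 were used.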

Additional observations from a re-analysis of the deposited data

How the results depend on the processing

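With 3 libraries per line, the direction of IL6, LIF, OSMR, STAT3 and SOCS3 was the same under every alternative run. For LIF the change was small throughout, at log2 fold changes of 0.006 to 0.118 with a library left out. By limma or edgeR, 0 members were called under any alternative. DESeq2 on recovered reads, with and without the replicate block, called 1 member, SOCS3, at log2 fold changes of 1.14 and 1.13. The replicate block changed no member's limma call. Over all genes, the 12 higher and 13 lower calls became 3 and 2 with edgeR and the block, 111 and 137 with DESeq2, and 184 and 208 with DESeq2 and the block, while edgeR gave 8 lower and a mean of at least 50 gave 6 lower. Leaving out a library gave 0 to 3 higher and 0 to 2 lower calls. The log2 fold change of POLDIP2 was then -2.07 to -1.91 and its limma adjusted p value 0.0202 to 0.0886, above 0.05 without WT replicate 2 or 3 and without POLDIP2 KO replicate 2 or 3. Members and named genes that were not called changed sign as follows. With a library left out, the log2 fold change of IL6R ran from -0.53 to 0.40, of IL6ST from -0.041 to 0.41, of JAK1 from -0.072 to 0.22, of SOCS2 from -0.42 to 0.072, of LIFR from -0.34 to 0.16, of PTPN11 from -0.38 to 0.18, of SHC1 from -0.047 to 0.061, of SOCS6 from -0.046 to 0.10 and of CCND1 from -0.047 to 0.24. IL6R was -0.0686 with edgeR and -0.0688 with DESeq2, and under quantile normalisation SHC1 was -0.0093 and CCND1 -0.010. CISH, SOCS7 and SAA2 have no value at a mean of at least 50. The causes were not tested. Scalings moved the median of all genes by under 0.01 on the log2 scale.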
